A study of Rattus norvegicus with 10 samples.

Results

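The jejunum of male Sprague Dawley rats given A-998679 by mouth at 30 mg/kg/day for 5 days was compared with the jejunum of rats given the vehicle alone. A-998679 is a small molecule made as a modulator of nicotinic acetylcholine receptors, and the study concerned its action on targets of the aryl hydrocarbon receptor (AhR). The 30 mg/kg group held 2 rats and the vehicle group 3 rats, so the comparison used 5 of the 10 arrays, chosen by their titles. Vehicle rats had received 0.2% HPMC, a cellulose suspending agent, at 10 ml/kg/day for the same 5 days. The other arrays came from 3 rats given 100 mg/kg/day and 2 rats given 200 mg/kg/day. All rats were male, weighed 176 to 200 g, and rat 3 of the 30 mg/kg group and rat 3 of the 200 mg/kg group were not analysed here. The comparison asks which transcripts of the gut wall, the first tissue that absorbs an oral dose, differed from vehicle at the lowest of the 3 doses.

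The AhR is a ligand-activated transcription factor that waits in the cytoplasm bound to Hsp90 chaperones. Once it binds a planar aromatic ligand it enters the nucleus, pairs with Arnt and binds DNA elements that hold the letters GCGTG, next to genes such as Cyp1a1, Cyp1a2, Cyp1b1, Tiparp and Ahrr. In the absorptive cells of the small intestine the induced enzyme Cyp1a1 oxidises foreign compounds during absorption, before they reach the liver, while Ahrr and Tiparp turn the receptor's activity down again.

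The values were log2 intensities of 29559 probe sets of an Affymetrix rat array, a probe set being a group of short DNA probes for one transcript. The array scans were background corrected and scaled by the authors, and 3237 to 3348 probe sets per array had no value and are called blank here. Tests covered the 17736 probe sets whose mean over the 10 arrays lay in the upper 60%, which reached down to 4.89. Only 2 of the 10 arrays were 30 mg/kg, so this filter admits a probe set dim only there more readily than one high only there. Median intensities of the 10 arrays ran between 5.86 and 5.90. Absorptive cells of the small intestine were plain in their transcripts. Over the 5 rats Fabp1, a fatty acid carrier, had 12.88 to 13.08 and Si, the sucrase-isomaltase of the brush border, had 11.87 to 12.18. The sugar carrier Slc5a1 varied more, from 9.12 to 11.15. Of 15 pancreas transcripts on the array 3 passed the intensity filter, Cela1, Ins1 and Pnliprp2, while others such as Pnlip and Prss1 lay below it.

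Vehicle rat 1 stood apart from its group. Across probe sets its profile correlated at 0.930 and 0.886 with vehicle rats 2 and 3, and at 0.955, 0.954 and 0.950 with the 3 rats given 100 mg/kg. The other rats did not sort by group either. The profile of 30 mg/kg rat 1 correlated at 0.969 with vehicle rat 2 and at 0.960 with 30 mg/kg rat 2. That of vehicle rat 3 correlated at 0.957 with 30 mg/kg rat 1 and at 0.949 with vehicle rat 2. The SD of the gene differences between rats of the same group was 0.429 for the 30 mg/kg rats, 0.490 between vehicle rats 2 and 1, 0.598 between vehicle rats 3 and 1, and 0.415 between vehicle rats 3 and 2. Fabp6, the bile acid carrier of the ileum, had 3.26 and 4.23 in the 30 mg/kg rats, against 7.89, 6.67 and 5.46 in vehicle rats 1, 2 and 3, so the vehicle rats also differed among themselves in a transcript of the lower gut. Results are therefore given with all 3 vehicle rats and, where it matters, without vehicle rat 1. All p-values measure only the spread between these rats.

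The AhR pathway was examined first. Cyp1a1, the enzyme most strongly tied to AhR activation, had 10.31 and 8.71 in the 30 mg/kg rats, against 7.09, 7.66 and 8.71 in the vehicle rats. One 30 mg/kg rat stood above every vehicle rat, while the other had the level of vehicle rat 3, so the groups met. The mean difference was 1.69 on the log2 scale (SE 0.68), which is 3.22-fold, and it did not pass limma's moderated test over all probe sets (adjusted p = 1). Without vehicle rat 1 it was 1.32 (adjusted p = 0.788).

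Tiparp, the AhR-induced repressor that adds ADP-ribose to its targets, was measured by 2 probe sets that gave different pictures. Probe set 1385407_at had 8.01 and 8.24 in the 30 mg/kg rats, against 6.25, 7.49 and 7.50 in the vehicle rats, and the groups did not overlap. Its difference was 1.05 (SE 0.35, limma adjusted p = 1) and 0.63 without vehicle rat 1. The brighter probe set, 1374446_at, had 8.28 and 8.75 in the 30 mg/kg rats, against 8.63, 8.08 and 8.08 in the vehicle rats, where vehicle rat 1 lay between the treated rats.

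Cyp1b1, the extrahepatic relative of Cyp1a1, had 7.97 and 7.81 in the 30 mg/kg rats, against 7.56, 7.73 and 7.94 in the vehicle rats. Ahrr, the AhR repressor, had 6.30 and 5.79 in the 30 mg/kg rats, against 6.02, 6.46 and 6.72 in the vehicle rats. Both genes overlapped between groups, with differences of 0.15 (SE 0.16) for Cyp1b1 and -0.35 (SE 0.30) for Ahrr, and without vehicle rat 1 the Ahrr difference was -0.54 with both treated rats below both remaining vehicle rats. Cyp1a2, the liver-type family member, was too dim to be tested and had 3.52 and 2.34 in the 30 mg/kg rats, against 5.87, 2.63 and 4.34 in the vehicle rats. Aldh3a1 and Arnt, also on the list, were too dim as well. Aldh3a1 had 3.32 and 2.60 in the 30 mg/kg rats, against 2.54 in vehicle rat 3 and blanks in the others. Arnt was blank in both 30 mg/kg rats and had 3.44 in vehicle rat 1 and blanks in the others. These few values lay about the 10th percentile of all intensities, 3.18.

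The receptor itself was dim. The brighter Ahr probe set, 1369146_a_at, had 4.22 and 3.44 in the 30 mg/kg rats, against 4.73, 4.79 and a blank in the vehicle rats, while the other, 1369147_at, was too dim for the test and had 3.63 and 4.12 in the 30 mg/kg rats, against 2.96, 3.39 and 4.54 in the vehicle rats. By 1369146_a_at both treated rats lay below both measured vehicle rats, and by 1369147_at the groups overlapped. The 2 probe sets pointed in opposite directions, with -0.93 and 0.24. The quinone reductase Nqo1 had 7.61 and 6.71 in the 30 mg/kg rats, against 7.26, 7.19 and 7.58 in the vehicle rats, so the treated rats held both the highest and the lowest value. The chaperone genes Hsp90ab1 and Ptges3 differed by -0.16 and -0.02, and Nfe2l2, the oxidant-response factor Nrf2, by -0.02.

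**Figure D1:**
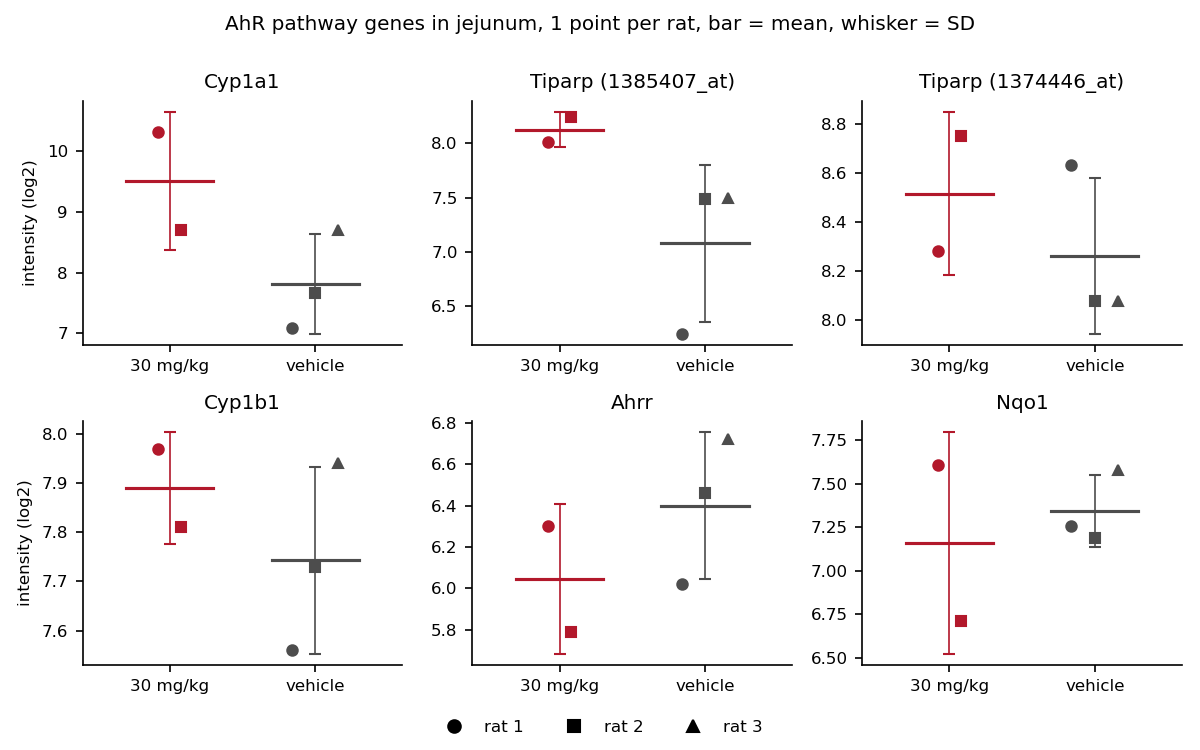
Log2 intensity of 6 AhR pathway probe sets (y axis, a separate scale in each panel) in the 2 rats given 30 mg/kg and the 3 vehicle rats, with 1 point per rat, the bar at the mean and the whisker at the SD. Only Tiparp probe set 1385407_at has both treated rats, at 8.01 and 8.24, above all vehicle rats, and for Cyp1a1 the lower treated rat and the highest vehicle rat both have 8.71.

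Of the 9 AhR pathway genes tested, each by its brightest probe set, 3 were above and 6 below vehicle on average, with a median difference of -0.02, or -0.16 without vehicle rat 1. Of the 8 with a value in all 5 rats none had separate groups, and the other, Ahr, had both treated rats below both measured vehicle rats. None of the 9 was called, and without 30 mg/kg rat 2 the list median was 0.15. RefSeq promoter windows of the rat assembly GRCr8, 250 bases before to 50 after the gene start, were searched for GCGTG and its reverse complement CACGC, and 29.7% of 33469 promoters held at least 1. Of 8 tested AhR pathway genes with a window 6 held it. Cyp1a1, the other tested gene, had no window in the promoter set used and so is not shown. The windows of Tiparp (chr2:152063519-152063818, + strand) and Cyp1b1 (chr6:21094315-21094614, + strand) are shown because both genes are AhR targets that stood above vehicle on average, with the motif in capitals.
Tiparp: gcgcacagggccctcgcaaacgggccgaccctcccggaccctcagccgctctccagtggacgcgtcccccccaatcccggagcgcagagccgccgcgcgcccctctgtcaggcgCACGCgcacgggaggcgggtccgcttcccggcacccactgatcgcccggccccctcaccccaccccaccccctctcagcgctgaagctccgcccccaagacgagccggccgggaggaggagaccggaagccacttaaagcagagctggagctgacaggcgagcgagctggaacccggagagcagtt
Cyp1b1: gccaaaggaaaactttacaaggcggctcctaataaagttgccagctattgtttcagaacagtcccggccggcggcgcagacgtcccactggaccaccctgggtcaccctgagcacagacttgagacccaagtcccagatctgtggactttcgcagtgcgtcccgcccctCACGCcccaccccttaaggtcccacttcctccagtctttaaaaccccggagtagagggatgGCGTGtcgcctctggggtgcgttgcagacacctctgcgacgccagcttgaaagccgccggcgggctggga
The Tiparp window held 1 match and the Cyp1b1 window 2, and 10.2% of all promoters held 2 or more. A match to these letters is a description of the window, with no bearing on whether the receptor bound there in these rats.

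Across all genes, few probe sets separated 30 mg/kg from vehicle by the test. Of 17707 probe sets tested with limma, 0 were called higher (0.0%) and 2 were called lower (0.0113%) at an adjusted p of up to 0.05. At an unadjusted p of up to 0.05, 323 were higher and 502 lower, together 4.66% of those tested. The part of the intensity filter in the excess on the lower side was not tested. The smallest adjusted p among the probe sets that were higher was 0.159. The SD of the log2 differences over all probe sets was 0.344 for 30 mg/kg against vehicle.

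The named gene that fell was Slamf9, a receptor of the SLAM family carried by macrophages and dendritic cells. Its probe set, 1378443_at, had 2.95 and 3.23 in the 30 mg/kg rats, against 5.19, 4.84 and 5.16 in the vehicle rats. Both treated rats lay far below all vehicle rats, and the difference was -1.97 (SE 0.20, limma adjusted p = 0.0432). The treated values lay about the 10th percentile of all intensities, 3.18, so the size depends on how dim values are handled, and it ran from -2.11 to -0.56 over the alternatives, the smallest with low values raised to the 25th percentile. The call held under 4 of 23 other ways of processing the data, and leaving out any 1 of the 10 arrays gave adjusted p-values of 0.0701 to 0.187. Its 30 mg/kg mean, 3.09, lay below the lowest mean kept, 4.89, so Slamf9 passed the filter through the other arrays. That also holds, among others named below, for 1377066_at (4.52), Gcg (3.38), Gpsm3 (3.72), Ms4a1 (2.40) and Slc17a1 (4.36).

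The other probe set that fell, 1377066_at, names no gene in the annotation used. It had 4.41 and 4.64 in the 30 mg/kg rats, against 6.86 and 6.69 in vehicle rats 1 and 2 and a blank in vehicle rat 3, which the fit dropped. The difference was -2.25 (SE 0.18, limma adjusted p = 0.0432), with both treated rats below both measured vehicle rats. It became -1.05, with no call, when that blank was given the value of the 10th percentile. Without vehicle rat 1 it was -2.17 (adjusted p = 0.132).

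**Figure D2:**
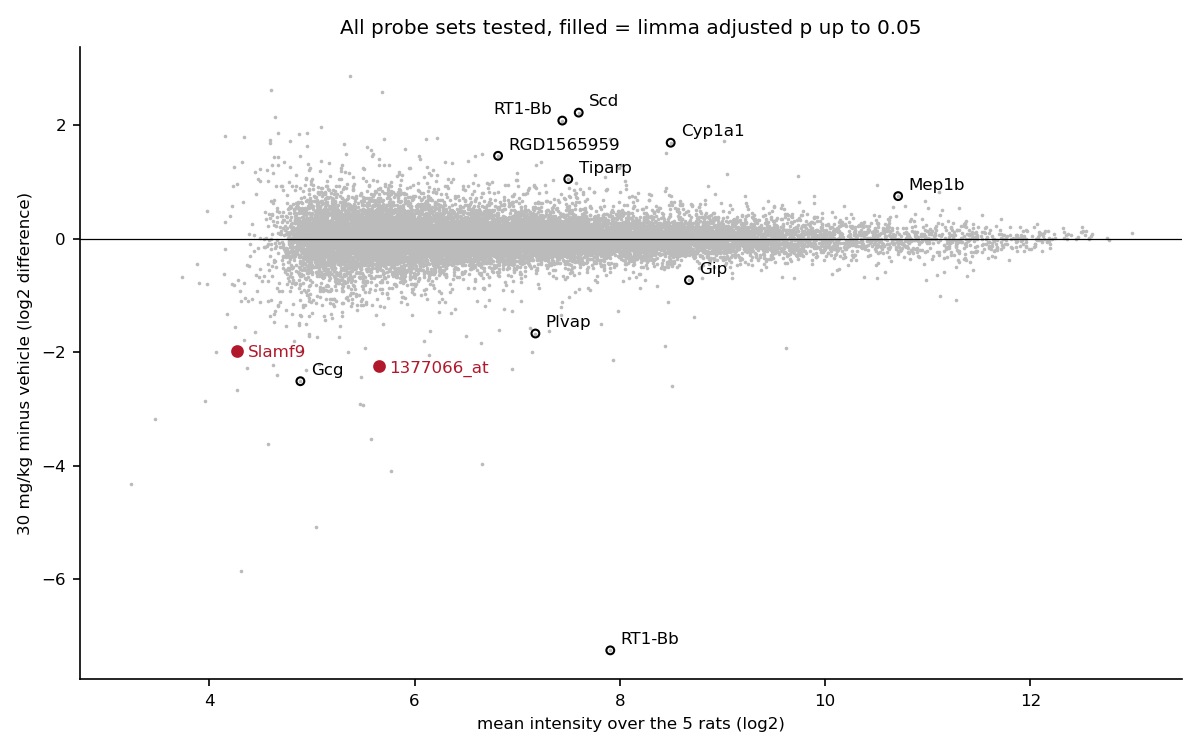
Log2 difference of 30 mg/kg minus vehicle (y axis) against the mean log2 intensity over the 5 rats (x axis), 1 grey point per probe set tested, with filled red points for adjusted p up to 0.05 and open circles for other probe sets named in the text. The filled points, Slamf9 at -1.97 and 1377066_at at -2.25, lie among dim probe sets, while Cyp1a1 at 1.69 and Mep1b at 0.75 are brighter and not called.

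Slamf9 is itself counted in a list of macrophage and dendritic cell transcripts, most of which lay on the same side. The list was drawn up with earlier results of these data known, so its counts are no support for the call. Of 14 genes tested, 11 were below vehicle on average and 3 above, with a median of -0.40 and of -0.26 without vehicle rat 1. Both treated rats lay below all vehicle rats for 6 of the 14 and above all of them for 1. For comparison, among 10148 genes with a value in all 5 rats, both treated rats lay below all vehicle rats for 1119 (11.0%) and above all of them for 711 (7.01%), and the median of all genes was -0.01. Without vehicle rat 1 the same shares, over 10157 genes, were 19.2% below (1950 genes) and 14.9% above (1516 genes). The limit of the intensity filter given above holds for these shares too.

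Fcgr1a, the high-affinity receptor for IgG, had 4.13 and 4.52 in the 30 mg/kg rats, against 5.24, 5.28 and 5.29 in the vehicle rats. Mpeg1, a pore-forming protein of phagocytes, had 7.05 and 7.29 in the 30 mg/kg rats, against 7.83, 7.53 and 7.78 in the vehicle rats. Tyrobp, the signalling adaptor of myeloid receptors, had 5.04 and 5.11 in the 30 mg/kg rats, against 5.66, 5.56 and 5.58 in the vehicle rats. All of these lay lower in both treated rats than in any vehicle rat, by 0.94, 0.54 and 0.52 on the log2 scale, and limma adjusted p-values were 0.862 for Fcgr1a and 1 for the other two. In whole tissue, fewer cells of a type and less RNA per cell cannot be told apart. Gene lists share rats and cells, so their counts are descriptions of these 5 animals.

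The class II antigen presentation genes, which macrophages, dendritic cells and B cells use to show peptides to T cells, were split. RT1-Db1, a beta chain, had 7.81 and 7.78 in the 30 mg/kg rats, against 9.33, 8.54 and 8.88 in the vehicle rats, a difference of -1.12 (SE 0.23, limma adjusted p = 0.778). RT1-DMb, which loads the peptides, had 7.0 and 7.34 in the 30 mg/kg rats, against 8.30, 7.85 and 7.94 in the vehicle rats. Both genes were lower in both treated rats than in every vehicle rat. RT1-Da, an alpha chain, had 9.99 and 10.01 in the 30 mg/kg rats, against 10.59, 10.17 and 10.22 in the vehicle rats, also with separate groups.

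The beta chain gene RT1-Bb gave opposite answers by probe set. Probe set 1371065_at had 8.87 and 8.51 in the 30 mg/kg rats, against 7.21, 4.77 and 7.84 in the vehicle rats, a difference of 2.08. Probe set 1371033_at, chosen after its values were seen, had a blank and 2.47 in the 30 mg/kg rats, against 9.71, 9.82 and 9.63 in the vehicle rats. The second probe set had 10.61, 7.79 and 6.84 after 100 mg/kg and 3.59 and 4.13 after 200 mg/kg, so its level varied by several log2 units within and between groups. Its difference at 30 mg/kg was -7.25, the most negative on the plot of all probe sets, and it rests on 1 treated rat whose value lay below the 10th percentile of intensities, so its size is not a measured one. It was not called with all 10 arrays, and was called in a fit of the 5 arrays alone (adjusted p = 0.02) and in the fit without 100 mg/kg rat 1 (adjusted p = 0.00824). These are the polymorphic genes of the rat major histocompatibility complex, and allele differences between rats were not tested. Over the whole list of 8 genes, 4 were above and 4 below vehicle.

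Transcripts of lymphoid follicles, the clusters of B cells and stroma in the gut wall, stood lower in the treated rats. All 7 genes tested on this list were below vehicle on average, with a median of -1.15. For 6 of the 7 (85.7%, beside 11.0% of all genes) both treated rats lay below all vehicle rats. Cxcl13, the chemokine that draws B cells into follicles, had 5.81 and 5.27 in the 30 mg/kg rats, against 8.08, 7.2 and 6.86 in the vehicle rats. Ccl19, a chemokine of T cell zones, had 5.38 and 5.44 in the 30 mg/kg rats, against 6.81, 6.32 and 6.01 in the vehicle rats.

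Cd37, a tetraspanin of B cells, had 4.12 and 5.27 in the 30 mg/kg rats, against 6.66, 5.74 and 5.43 in the vehicle rats, and Ltb, the lymphotoxin that organises follicles, had 4.41 and 5.27, against 6.69, 5.76 and 5.53. Neither gene overlapped between groups. The differences were -1.84 (SE 0.70) for Cxcl13, -0.97 for Ccl19, -1.25 for Cd37 and -1.15 for Ltb, each with a limma adjusted p of 1. Vehicle rat 1 had the highest value of all of them. Without it the list median was -0.80 and the same number of genes, 6 of 7, had both treated rats lowest, beside 19.2% of all genes. Leaving out 30 mg/kg rat 1 gave a list median of -0.73.

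B cell and plasma cell transcripts were dimmer and more variable. All 8 genes tested were below vehicle on average, with a median of -0.56, which was -0.31 without 30 mg/kg rat 1. Ms4a1, the B cell surface protein CD20, had 3.35 and 1.44 in the 30 mg/kg rats, against 7.29, 5.99 and 4.79 in the vehicle rats, and Pou2af1, a B cell coactivator, had -0.08 and a blank in the 30 mg/kg rats, against 6.84, 5.74 and 4.74 in the vehicle rats. Every measured treated rat lay below every vehicle rat for both, and neither passed the test (limma adjusted p = 0.961 and 0.802). The treated values of 1.44 for Ms4a1 and -0.08 for Pou2af1 lay below the 10th percentile of intensities and Pou2af1 had 1 measured treated rat, so the sizes are not measured. With low values and blanks raised to the 10th percentile the differences were -2.75 for Ms4a1 and -2.60 for Pou2af1, and with the 25th percentile -1.52 and -1.28. Cr2, the complement receptor of follicular cells, had 3.52 and 3.97 in the 30 mg/kg rats, against 6.99, 6.08 and 3.59 in the vehicle rats, where vehicle rat 3 was as low as the treated rats. The plasma cell chaperone Mzb1 had 5.23 and 5.85 in the 30 mg/kg rats, against 6.46, 5.83 and 6.17 in the vehicle rats.

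T cell and natural killer cell transcripts followed with smaller differences. Of 11 tested, 10 were below vehicle on average, with a median of -0.47 and of -0.23 without vehicle rat 1. For 5 of the 11 (45.5%, beside 11.0% of all genes) both treated rats lay below all vehicle rats. Cd3g, a chain of the T cell receptor complex, had 8.65 and 8.12 in the 30 mg/kg rats, against 9.35, 8.79 and 9.08 in the vehicle rats. Cd247, its zeta chain, had 5.62 and 5.40 in the 30 mg/kg rats, against 5.98, 6.08 and 5.82 in the vehicle rats. Both chains stood apart between groups, as did the cytotoxic granule protease Gzma, with 5.54 and 5.84 in the 30 mg/kg rats, against 7.36, 6.45 and 6.01 in the vehicle rats.

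The amount of lymphoid tissue in a piece of gut can differ between rats, and the mean levels of these lists were set beside other transcripts that moved with them. The mean level of a list is each gene's log2 value minus its mean over the 10 arrays, averaged over the list. The follicle level was -0.86 and -0.59 in the 30 mg/kg rats, against 1.05, 0.35 and -0.03 in vehicle rats 1, 2 and 3, and the B and plasma cell level was -1.36 and -1.01 in the 30 mg/kg rats, against 0.72, 0.09 and -0.32 in the vehicle rats. The ileal carrier Fabp6, given above, had the same order among the vehicle rats and was also lowest in the treated rats. For T and natural killer cells the level was -0.56 and -0.61 in the 30 mg/kg rats, against 0.30, -0.34 and -0.32 in the vehicle rats, and for macrophages and dendritic cells -0.49 and -0.45, against 0.05, -0.23 and -0.11. The part of the gut segment sampled, or of follicles within it, in these results was not tested. Slc10a2, the bile acid uptake transporter of the ileum, did not follow Fabp6. It had 5.52 and 5.59 in the 30 mg/kg rats, against 6.18, 5.13 and 5.65 in the vehicle rats. The groups overlapped and vehicle rat 2 was the lowest of the 5 rats.

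**Figure D3:**
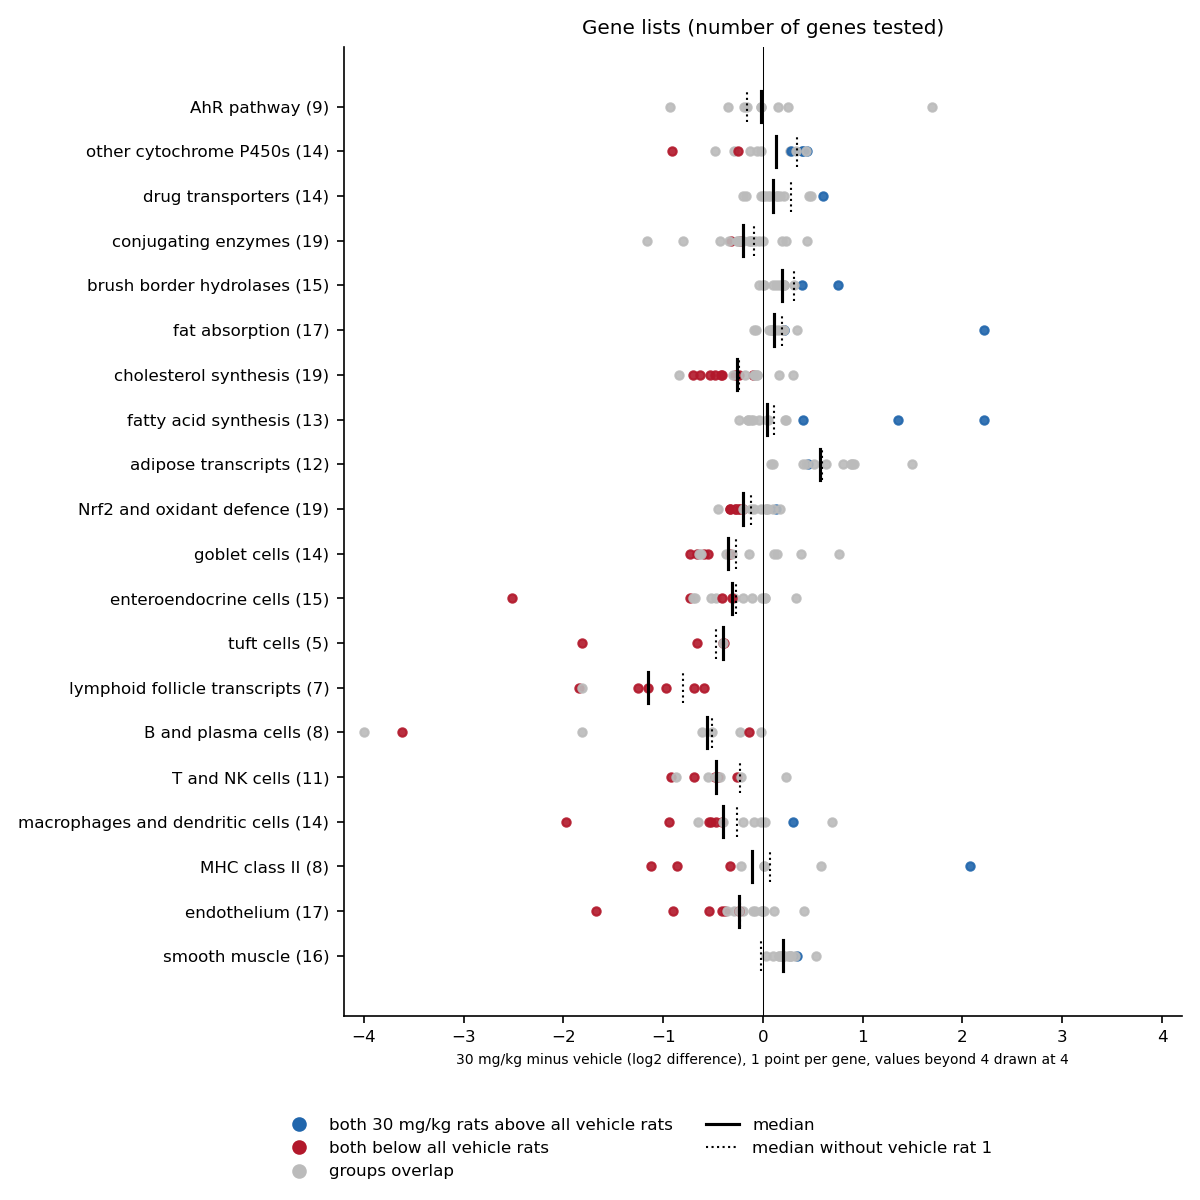
Log2 difference of 30 mg/kg minus vehicle (x axis) for every gene tested in 20 gene lists (rows, number of genes in brackets), 1 point per gene by its brightest probe set. Blue and red mark genes whose treated rats both lay above or both below all vehicle rats, and the solid and dotted lines mark the list median with all vehicle rats and without vehicle rat 1, with lymphoid follicle transcripts at -1.15 and -0.80.

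Hormone-secreting cells of the lining were next. Of 15 enteroendocrine genes tested 12 were below vehicle on average, with a median of -0.31 and of -0.27 without vehicle rat 1. Of the 14 with a value in every rat 4 (28.6%, beside 11.0% of all genes) had both treated rats below all vehicle rats. Gip, the incretin of the upper small intestine, had 8.24 and 8.23 in the 30 mg/kg rats, against 8.87, 9.03 and 9.0 in the vehicle rats. The rats of each group lay close together and the groups were apart by -0.73 (SE 0.19, limma adjusted p = 0.904). Gcg, whose product is cut to the glucagon-like peptides of L cells, had 3.43 and 3.33 in the 30 mg/kg rats, against 7.14, 5.52 and 5.02 in the vehicle rats, a difference of -2.51 (SE 0.53, limma adjusted p = 0.778) and of -1.89 without vehicle rat 1. Its treated values were dim, and with low values raised to the 25th percentile the Gcg difference was -1.39. L cells are commoner in the lower gut, and Fabp6 had the same order as Gcg among the vehicle rats. At the other doses the 2 genes did not go together. Fabp6 had 7.61, 4.86 and 4.07 at 100 mg/kg, where Gcg had 7.29, 7.18 and 7.52. At 200 mg/kg Fabp6 had 5.82 and 2.05, and Gcg had 7.15 and 6.42. The part of the gut segment in the Gcg difference was not tested.

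Chgb, the granule protein chromogranin B, had 7.68 and 7.17 in the 30 mg/kg rats, against 8.22, 7.64 and 7.98 in the vehicle rats. Sct, the hormone secretin, had 5.31 and 6.03 in the 30 mg/kg rats, against 6.32, 6.14 and 5.96 in the vehicle rats. For both genes 1 treated rat lay within the vehicle range. The mean level of the enteroendocrine list was nevertheless apart, at -0.29 and -0.38 in the 30 mg/kg rats, against 0.11, 0.05 and 0.14 in the vehicle rats, and vehicle rat 1 did not stand out in it.

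Tuft cells, the chemosensory cells of the lining, gave 5 genes above the filter, and all 5 were below vehicle on average. Pou2f3, the transcription factor that makes tuft cells, had 5.20 and 5.33 in the 30 mg/kg rats, against 6.03, 6.01 and 5.74 in the vehicle rats. Plcb2, the phospholipase of taste signalling, had 4.75 and 5.26 in the 30 mg/kg rats, against 7.33, 7.30 and 5.82 in the vehicle rats. The groups were apart for both, by -0.66 (SE 0.14, limma adjusted p = 0.778) and -1.81 (SE 0.44, limma adjusted p = 0.899).

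Ptgs1, the constitutive cyclooxygenase, had 5.94 and 5.97 in the 30 mg/kg rats, against 6.20, 6.34 and 6.52 in the vehicle rats, and the tuft cell kinase Dclk1 had 5.87 and 6.02, against 6.51, 6.24 and 6.26. With these, 4 of the 5 tuft genes had both treated rats lowest, with or without vehicle rat 1, beside 11.0% and 19.2% of all genes. The list median was -0.40, or -0.47 without vehicle rat 1 and -0.73 without 30 mg/kg rat 2. Ptgs1 and Plcb2 are also made by other cells, among them blood cells.

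Goblet cells secrete the mucus layer, and their bright transcripts lay lower in the treated rats, most of all in 30 mg/kg rat 2. Zg16, a lectin of the mucus, had 10.90 and 10.18 in the 30 mg/kg rats, against 11.63, 11.08 and 11.11 in the vehicle rats. Agr2, the foldase that mucin assembly needs, had 11.39 and 10.58 in the 30 mg/kg rats, against 11.99, 11.45 and 11.52 in the vehicle rats. Tff3, the trefoil peptide, had 11.49 and 10.73 in the 30 mg/kg rats, against 11.84, 11.55 and 11.60 in the vehicle rats.

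In all of these rat 1 of the treated group lay just below the lowest vehicle rat and rat 2 lay further down. Fcgbp, which crosslinks mucus, had 11.25 and 10.36 in the 30 mg/kg rats, against 11.50, 11.29 and 11.39 in the vehicle rats. Of 14 goblet genes tested, 10 were below and 4 above vehicle on average, with a median of -0.35, or -0.11 without 30 mg/kg rat 2. Both treated rats were lowest for 5 of the 14 (35.7%, beside 11.0% of all genes). The mean level of the list overlapped between groups, at -0.17 and -0.59 in the 30 mg/kg rats, against -0.03, -0.23 and -0.12 in the vehicle rats. None of 9 Paneth cell and antimicrobial genes and none of 9 stem cell and crypt base genes had separate groups. Among all genes 7.01% were separate above and 11.0% below, so such short lists can hold none.

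**Figure D4:**
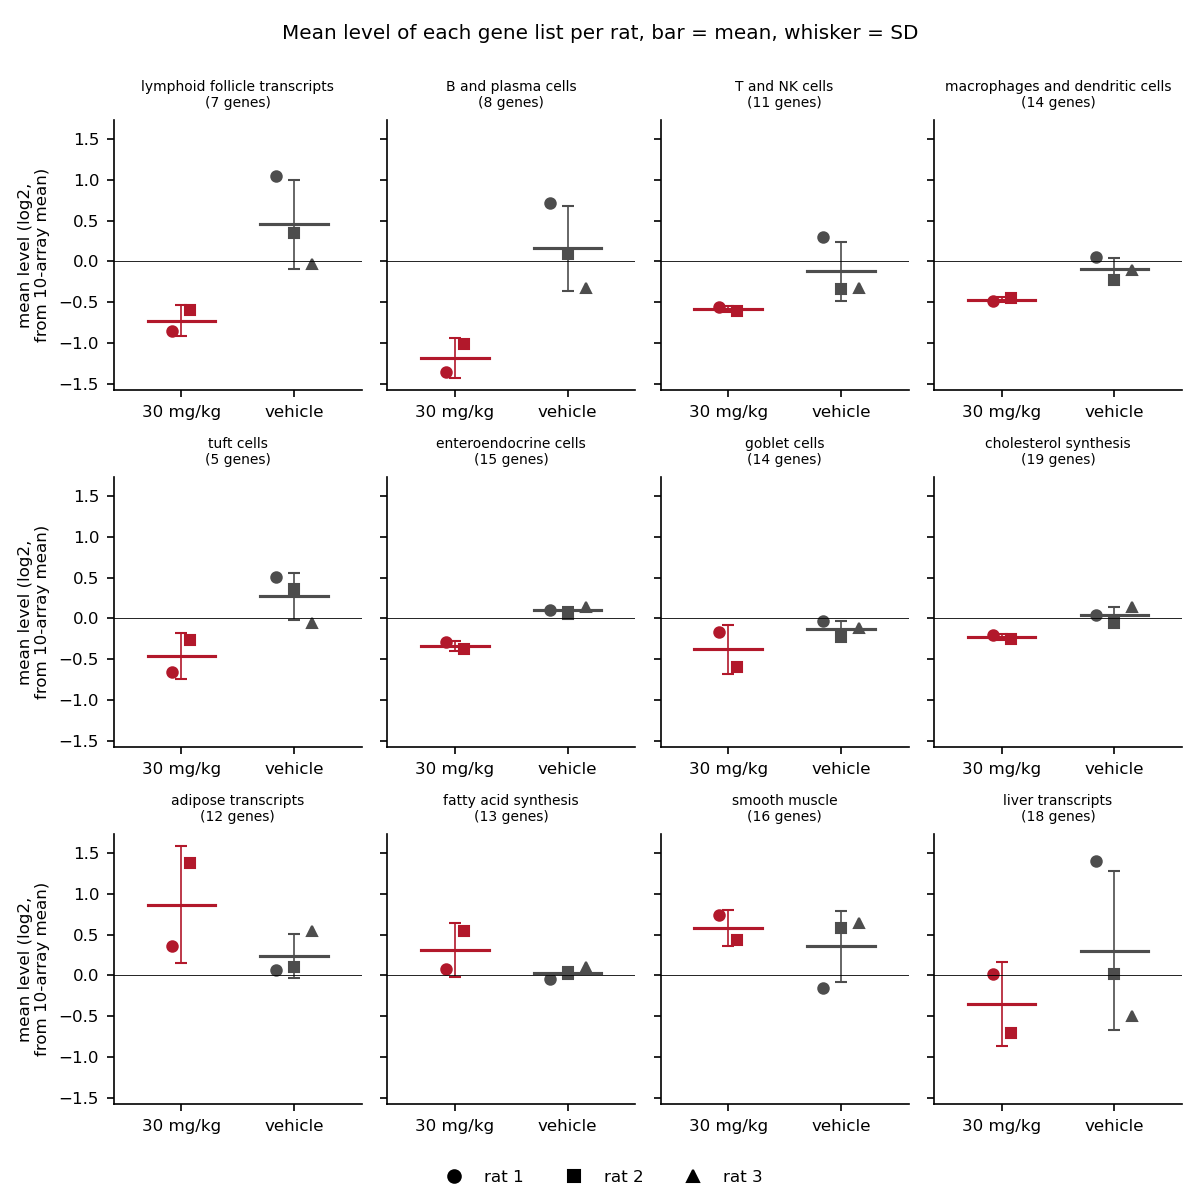
Mean log2 level of 12 gene lists (y axis, relative to each gene's mean over the 10 arrays) in the 2 rats given 30 mg/kg and the 3 vehicle rats, 1 point per rat, bar at the mean and whisker at the SD. Enteroendocrine levels of -0.29 and -0.38 in treated rats lie below the 3 vehicle rats, while goblet and smooth muscle levels overlap and liver transcripts are highest in vehicle rat 1, at 1.40.

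Several transcripts of the vessel lining were also lower in the treated rats. Plvap, which forms the diaphragms of fenestrated capillaries, had 6.68 and 5.68 in the 30 mg/kg rats, against 8.16, 7.63 and 7.74 in the vehicle rats, a difference of -1.67 (SE 0.30, limma adjusted p = 0.682) or 3.17-fold lower. Kdr, the main receptor for vascular endothelial growth factor, had 6.45 and 6.19 in the 30 mg/kg rats, against 7.54, 6.92 and 7.19 in the vehicle rats, a difference of -0.90 (SE 0.20, limma adjusted p = 0.802). For both the groups were apart, and the differences without vehicle rat 1 were -1.51 and -0.73.

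The coreceptor Eng had 5.25 and 5.40 in the 30 mg/kg rats, against 6.02, 5.60 and 6.0 in the vehicle rats, and the junction protein Pecam1 had 6.17 and 6.20, against 6.80, 6.32 and 6.65. Of 17 endothelial genes tested 14 were below vehicle on average, and 6 of the 17 (35.3%, beside 11.0% of all genes) had both treated rats lowest. The median was -0.24, which was -0.23 without vehicle rat 1 and -0.08 without 30 mg/kg rat 2. The list level was -0.00 and -0.25 in the 30 mg/kg rats, against 0.12, 0.02 and 0.34 in the vehicle rats, so 30 mg/kg rat 1 lay next to vehicle rat 2. Fibroblast and matrix genes had a median of 0.00 over 27 genes and of -0.16 without vehicle rat 1. In that setting 7 had both treated rats lowest and 1 both highest, beside 19.2% and 14.9% of all genes. Smooth muscle genes were above vehicle on average for all 16 tested, with a median of 0.20. That side came from vehicle rat 1, since the list level was 0.74 and 0.43 in the 30 mg/kg rats, against -0.15, 0.58 and 0.64 in vehicle rats 1, 2 and 3, and without it the median was -0.02.

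Among metabolic genes, the pathway that makes cholesterol had the largest share of genes with separate groups. Of 19 tested, 17 were below vehicle on average, with a median of -0.26. Of the 18 with a value in every rat 10 (55.6%, beside 11.0% of all genes) had both treated rats below all vehicle rats. Fdps, which makes farnesyl diphosphate, had 8.80 and 8.54 in the 30 mg/kg rats, against 9.69, 9.31 and 9.11 in the vehicle rats.

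Tm7sf2, a sterol reductase, had 6.11 and 6.20 in the 30 mg/kg rats, against 6.98, 6.65 and 6.70 in the vehicle rats. Fdft1, squalene synthase, had 7.85 and 7.62 in the 30 mg/kg rats, against 8.25, 8.27 and 8.25 in the vehicle rats. Nsdhl, a sterol dehydrogenase, had 7.58 and 7.56 in the 30 mg/kg rats, against 7.85, 7.76 and 7.86 in the vehicle rats. In every one of these the treated rats lay below all vehicle rats, by 0.26 to 0.70 on the log2 scale, and limma gave an adjusted p of 1. The list median stayed at -0.24 without vehicle rat 1, and its level was -0.20 and -0.25 in the 30 mg/kg rats, against 0.04, -0.06 and 0.14 in the vehicle rats.

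Fatty acid synthesis genes went another way in single members. Scd, the desaturase that makes monounsaturated fatty acids, had 7.86 and 10.01 in the 30 mg/kg rats, against 6.78, 6.48 and 6.87 in the vehicle rats, a difference of 2.22 (SE 0.61, limma adjusted p = 1) or 4.67-fold. Thrsp, a lipogenic nuclear protein, had 6.91 and 9.17 in the 30 mg/kg rats, against 6.67, 6.67 and 6.75 in the vehicle rats. Both treated rats exceeded all vehicle rats for both genes, and most of the difference came from rat 2.

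Malic enzyme, Me1, had 9.74 and 10.08 in the 30 mg/kg rats, against 9.41, 9.57 and 9.55 in the vehicle rats, while Fasn, fatty acid synthase, had 8.70 and 9.11, against 8.48, 8.77 and 8.77. Over the 13 genes of the list 7 were above and 6 below vehicle, with a median of 0.04. Fat cell transcripts moved with Scd and Thrsp in rat 2. Adipoq, the fat cell hormone adiponectin, had 6.54 and 8.57 in the 30 mg/kg rats, against 5.92, 5.61 and 6.65 in the vehicle rats, and Plin1, the coat protein of fat droplets, had 5.44 and 7.57, against 5.34, 5.45 and 6.0.

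The lipoprotein lipase Lpl had 7.16 and 8.96 in the 30 mg/kg rats, against 7.2, 6.98 and 7.59 in the vehicle rats. The mean level of 12 adipose genes was 0.36 and 1.38 in the 30 mg/kg rats, against 0.07, 0.10 and 0.55 in the vehicle rats, and all 12 were above vehicle on average, with a median of 0.57, which was 0.02 without 30 mg/kg rat 2. Rat 1 of the treated group lay within the vehicle range for Plin1, Lpl and the list level. Without 30 mg/kg rat 2 the differences of Lpl and Plin1 were -0.10 and -0.16. The part of attached fat in the Scd and Thrsp differences was not tested.

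Drug handling genes outside the AhR targets lay on both sides of vehicle. Of 14 other cytochrome P450 genes 7 were above and 7 below vehicle, with a median of 0.13, or -0.07 without 30 mg/kg rat 2. Both treated rats were highest for 4 (28.6%, beside 7.01% of all genes) and lowest for 2 (14.3%, beside 11.0%). Cyp26b1, which clears retinoic acid, had 5.66 and 5.42 in the 30 mg/kg rats, against 6.57, 6.27 and 6.53 in the vehicle rats, a difference of -0.91 (SE 0.20, limma adjusted p = 0.802). Cyp4f6, a fatty acid hydroxylase, had 8.33 and 8.67 in the 30 mg/kg rats, against 8.10, 8.16 and 8.08 in the vehicle rats. The arachidonic acid epoxygenase Cyp2j4 had 10.95 and 11.32 in the 30 mg/kg rats, against 10.91, 10.65 and 10.54 in the vehicle rats.

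These 3 genes had separate groups, as did Por, the reductase that feeds electrons to all microsomal P450s, with 9.43 and 9.85 in the 30 mg/kg rats, against 9.41, 9.22 and 9.08 in the vehicle rats. The lower treated rat was only just above vehicle rat 1 for Cyp2j4 and Por. Of 19 conjugating enzymes 16 were below vehicle, with a median of -0.20, which was -0.09 without vehicle rat 1 and -0.08 without 30 mg/kg rat 2. Nat2, an arylamine acetyltransferase, had a blank and 5.01 in the 30 mg/kg rats, against 6.17 and 2 blanks in the vehicle rats, a difference of -1.16 that rests on 1 rat a group (limma adjusted p = 0.97). Gstm1, a glutathione transferase, had 6.35 and 4.99 in the 30 mg/kg rats, against 7.38, 5.62 and 6.41 in the vehicle rats, with overlap. Gstp1, of the same enzyme family, had 10.79 and 10.37 in the 30 mg/kg rats, against 10.85, 10.82 and 11.03 in the vehicle rats.

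Of 14 drug transporters 10 were above vehicle, with a median of 0.10, or -0.15 without 30 mg/kg rat 2. Abcc2, the pump for conjugates at the luminal membrane, had 8.26 and 8.55 in the 30 mg/kg rats, against 8.15, 7.41 and 7.85 in the vehicle rats, a difference of 0.60 (SE 0.51, limma adjusted p = 1). It was the 1 transporter with separate groups, 7.14% of the list beside 7.01% of all genes. Abcb1a, P-glycoprotein, had 10.13 and 10.35 in the 30 mg/kg rats, against 10.39, 9.61 and 9.36 in the vehicle rats, so vehicle rat 1 exceeded both treated rats. Abcc6, an exporter of the same family, had 8.04 and 8.50 in the 30 mg/kg rats, against 7.90, 8.33 and 7.14 in the vehicle rats.

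Retinoid genes besides Cyp26b1 gave single differences. Rdh7, a retinol dehydrogenase, had 7.12 and 8.80 in the 30 mg/kg rats, against 6.80, 6.41 and 6.77 in the vehicle rats, and Bco1, which cleaves beta-carotene, had 11.23 and 11.08, against 10.86, 11.02 and 10.55. Aldh1a2, which makes retinoic acid, had 6.11 and 6.58 in the 30 mg/kg rats, against 6.70, 7.0 and 6.67 in the vehicle rats. The groups were apart for all of these, Aldh1a2 being the one that was lower. Of 14 retinoid genes tested 5 were above and 9 below vehicle on average, with a median of -0.05. Both treated rats were highest for 2 (14.3%, beside 7.01% of all genes) and lowest for 2 (14.3%, beside 11.0%). Of a list of acetylcholine receptors and related proteins, 14 genes were on the array and 2 passed the filter. Neither is a nicotinic receptor, the kind that the compound was made for, so no nicotinic receptor of the list was tested. The muscarinic receptor Chrm3 differed by 0.06 and butyrylcholinesterase, Bche, by -0.02, with overlap in both.

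The absorptive functions of the jejunum were close to vehicle or slightly above it. Of 15 brush border hydrolase genes 13 were above vehicle on average, with a median of 0.19, which was -0.02 without 30 mg/kg rat 2. The list level overlapped, at -0.19 and 0.23 in the 30 mg/kg rats, against 0.16, -0.20 and -0.50 in the vehicle rats. Mep1b, a subunit of the protease meprin, had 10.96 and 11.36 in the 30 mg/kg rats, against 10.88, 10.22 and 10.14 in the vehicle rats, a difference of 0.75 (SE 0.23, limma adjusted p = 1). Ggt1, gamma-glutamyltransferase, had 9.37 and 9.69 in the 30 mg/kg rats, against 9.34, 8.87 and 9.19 in the vehicle rats. These were the 2 hydrolases with separate groups, 13.3% of the list beside 7.01% of all genes, and in both vehicle rat 1 came close to the lower treated rat. Without vehicle rat 1, 7 of the 15 had both treated rats highest, beside 14.9% of all genes.

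Genes of fat absorption were also bright and near their vehicle level. Of 17 tested, 15 were above vehicle, with a median of 0.11, or 0.03 without 30 mg/kg rat 2. Mttp, which loads lipid onto chylomicrons, had 11.83 and 12.02 in the 30 mg/kg rats, against 11.76, 11.77 and 11.63 in the vehicle rats. Acsl5, which activates fatty acids, had 11.92 and 12.13 in the 30 mg/kg rats, against 11.91, 11.77 and 11.79 in the vehicle rats. Both had separate groups by narrow margins, and the other gene with separate groups was Scd, together 17.6% of the list beside 7.01% of all genes.

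Of 19 sugar and amino acid transporters 13 were above vehicle, with a median of 0.12 that was -0.10 without 30 mg/kg rat 2 and -0.09 without vehicle rat 3. The 2 with separate groups were lower, 10.5% of the list beside 11.0% of all genes. Slc1a1, the glutamate transporter, had 5.81 and 5.96 in the 30 mg/kg rats, against 6.77, 6.65 and 6.06 in the vehicle rats. Slc16a1, a lactate and butyrate carrier, had 9.08 and 8.80 in the 30 mg/kg rats, against 9.41, 9.13 and 9.21 in the vehicle rats. Fatty acid oxidation genes gave a median of -0.03 over 24 genes. Pdk4, the kinase that shuts off glucose oxidation in fasting, had 7.83 and 8.65 in the 30 mg/kg rats, against 7.75, 7.18 and 7.33 in the vehicle rats.

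Most oxidant defence genes were slightly below vehicle. Of 19 tested 13 were below and 6 above vehicle, with a median of -0.20. Both treated rats were lowest for 7 (36.8%, beside 11.0% of all genes) and highest for 1 (5.26%, beside 7.01%). Gpx1 had 9.38 and 9.25 in the 30 mg/kg rats, against 9.57, 9.59 and 9.63 in the vehicle rats, and its epithelial relative Gpx2 had 10.46 and 10.40, against 10.75, 10.72 and 10.80. Sod1, a superoxide dismutase, had 10.00 and 10.04 in the 30 mg/kg rats, against 10.24, 10.22 and 10.41 in the vehicle rats. Keap1, the sensor that holds Nrf2 down, had 7.19 and 7.39 in the 30 mg/kg rats, against 7.52, 7.63 and 7.71 in the vehicle rats. Each of these differences was between -0.33 and -0.27 with a limma adjusted p of 1, and the rats of each group lay close together. Without vehicle rat 1 the median was -0.12, and 9 of the 19 genes had both treated rats lowest and 3 both highest, beside 19.2% and 14.9% of all genes.

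Respiratory chain genes lay on the same side, with 17 of 22 below vehicle and a median of -0.06, which was -0.15 without 30 mg/kg rat 1. Both treated rats were lowest for 6 of the 22 (27.3%, beside 11.0% of all genes). Ndufb8 had 6.65 and 6.68 in the 30 mg/kg rats, against 7.77, 6.93 and 6.89 in the vehicle rats, and Ndufv1, also of complex I, had 9.78 and 9.40, against 9.86, 9.90 and 9.84. Ribosomal protein genes were below vehicle for 14 of 15, with a median of -0.20, and 2 of the 15 had separate groups, 13.3% beside 11.0% of all genes. The median was 0.02 without 30 mg/kg rat 2. Rpl27 had 11.36 and 10.75 in the 30 mg/kg rats, against 11.44, 11.45 and 11.51 in the vehicle rats, so rat 2 accounted for most of its difference.

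Stress genes gave mixed results. Immediate early genes, which are switched on within minutes of handling, injury or growth signals, were above vehicle for 15 of 21. Their median was 0.30, or 0.06 without 30 mg/kg rat 2, and 1 of the 21 had separate groups, 4.76% beside 7.01% of all genes. Atf3 had 8.08 and 9.26 in the 30 mg/kg rats, against 8.27, 6.94 and 7.72 in the vehicle rats, and Fosb had 6.06 and 7.59, against 5.90, 4.96 and 6.54. In both, 1 treated rat was the highest of the 5 and the other lay inside the vehicle range. Ppp1r15a, a stress phosphatase subunit, had 6.46 and 7.38 in the 30 mg/kg rats, against 6.40, 6.26 and 6.41 in the vehicle rats, and the chaperone Hyou1 had 7.97 and 7.88, against 8.25, 8.18 and 8.24. The 23 unfolded protein response genes had a median of -0.10.

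Clock genes were above vehicle for 10 of 15, with a median of 0.16. Tef, a clock output factor, had 7.81 and 8.40 in the 30 mg/kg rats, against 7.39, 7.18 and 7.64 in the vehicle rats. Nr1d2, the repressor REV-ERB beta, had 8.95 and 9.11 in the 30 mg/kg rats, against 8.79, 8.47 and 8.80 in the vehicle rats. Both were higher in both treated rats than in any vehicle rat, by 0.70 (SE 0.29) and 0.34 (SE 0.16), and neither was called. In the whole list both treated rats were highest for 3 genes (20%, beside 7.01% of all genes) and lowest for 1 (6.67%, beside 11.0%). The list median depended on 30 mg/kg rat 2, being -0.02 without it. Of 22 interferon response genes 2 had both treated rats lowest, 9.09% beside 11.0% of all genes, and both encode subunits of the immunoproteasome. Psmb9 had 9.15 and 9.40 in the 30 mg/kg rats, against 9.89, 10.28 and 9.76 in the vehicle rats, and Psmb8 had 10.17 and 10.06, against 10.40 in each vehicle rat. Among 30 cell cycle genes, the mitotic kinase Aurkb was the 1 with separate groups, 3.33% of the list beside 11.0% of all genes. It had 7.53 and 7.17 in the 30 mg/kg rats, against 7.96, 7.72 and 7.69 in the vehicle rats.

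Outside the lists, up to 12 genes were taken by smallest p among those that stood higher by 1 log2 unit or more with separate groups. RGD1565959 had 7.67 and 7.71 in the 30 mg/kg rats, against 5.96, 6.54 and 6.19 in the vehicle rats, a difference of 1.46 (SE 0.18, limma adjusted p = 0.159), or 2.75-fold. Its treated rats had nearly the same level and lay well above the highest vehicle rat. The protocadherin Pcdha12 had 5.50 and 5.53 in the 30 mg/kg rats, against 4.41, 4.16 and 4.62 in the vehicle rats, and Bcl2l11, the apoptosis activator Bim, had 6.99 and 6.80, against 5.35, 5.43 and 6.52. Nicol1, Phf7, Snhg11, Raph1, the cadherin Cdh22 and the metalloprotease Adam33 differed by 1.02 to 1.57. The unnamed probe set 1376129_at had 7.29 and 7.27 in the 30 mg/kg rats, against 6.29, 5.29 and 4.96 in the vehicle rats. It was called higher only when vehicle rat 1 was left out (2.16, limma adjusted p = 0.0218) or the arrays were weighted (1.97, limma adjusted p = 0.0436). The weights of vehicle rats 1, 2 and 3 were 0.27, 8.34 and 0.41, so the weighted vehicle mean rested mostly on rat 2.

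Bright genes with smaller differences were more even. The aminopeptidase Lap3 had 10.85 and 11.03 in the 30 mg/kg rats, against 10.53, 10.51 and 10.56 in the vehicle rats. Rgs5, a regulator of G protein signalling in pericytes, had 8.86 and 8.54 in the 30 mg/kg rats, against 7.77, 8.26 and 8.01 in the vehicle rats, and Dpt, the matrix protein dermatopontin, had 9.07 and 9.11, against 8.55, 8.82 and 8.62. Each of these had separate groups and differences of 0.40 to 0.69. On the low side, Ppib, a proline isomerase of the endoplasmic reticulum, had 9.81 and 9.58 in the 30 mg/kg rats, against 10.29, 10.30 and 10.38 in the vehicle rats, a difference of -0.63 (SE 0.13, limma adjusted p = 0.778). Tspan13, a tetraspanin, had 9.73 and 9.85 in the 30 mg/kg rats, against 10.48, 10.21 and 10.33 in the vehicle rats.

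Among genes that stood lower by 1 log2 unit or more, Slc17a1, a sodium-dependent phosphate and anion transporter, came closest to a call. It had 4.56 and 4.16 in the 30 mg/kg rats, against 5.70, 5.87 and 6.09 in the vehicle rats, a difference of -1.53 (SE 0.20, limma adjusted p = 0.169). Slpi, the secretory leukocyte protease inhibitor of mucosal surfaces, had 6.20 and 6.07 in the 30 mg/kg rats, against 7.73, 7.09 and 7.29 in the vehicle rats. Gpsm3, a modulator of G protein signalling in blood cells, had 3.67 and 3.77 in the 30 mg/kg rats, against 5.90, 5.55 and 5.62 in the vehicle rats. Both treated rats of all these genes lay well below the lowest vehicle rat. Atp8a1, a lipid flippase, and the centrosome genes Cetn1 and Cdk5rap2 had differences between -1.05 and -2.22, and their treated rats were also lowest.

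The 30 mg/kg rats were set against the other doses with the same fit. These contrasts share the 30 mg/kg rats with the comparison above, so the values are given side by side. Against 100 mg/kg, 45 of 17708 probe sets were called higher at 30 mg/kg (0.254%) and 54 lower (0.305%). Of these 99, 97 had separate groups and the other 2 had a blank. Called probe sets are picked for a wide gap, so their separation adds nothing to the calls. The 99 covered 74 named genes with a median size of 1.41. The count ran from 0 without 30 mg/kg rat 1 to 1015 without vehicle rat 1, although no vehicle array enters this contrast except through the estimate of the spread. Without 1 of the others it was 2 without 100 mg/kg rat 2, 6 without 30 mg/kg rat 2, 9 without 100 mg/kg rat 1 or rat 3, 28 without either 200 mg/kg rat, 32 without vehicle rat 2 and 285 without vehicle rat 3, so the number of calls was unstable and the per-rat values carry more than the count.

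Macrophage and class II genes led the lower side. Slamf9 had 2.95 and 3.23 at 30 mg/kg, against 5.91, 6.22 and 5.69 at 100 mg/kg, and fell by 2.85 on the log2 scale relative to it (limma adjusted p = 0.00294). Mpeg1 had 7.05 and 7.29 at 30 mg/kg, against 9.41, 9.66 and 9.43 at 100 mg/kg (limma adjusted p = 0.00294), and RT1-Db1 had 7.81 and 7.78, against 10.16, 10.14 and 9.74 (limma adjusted p = 0.0197). For these genes the vehicle rats lay between the doses. Mpeg1 had 7.53 to 7.83 and RT1-Db1 8.54 to 9.33 in the vehicle rats, and the rats at 200 mg/kg had 7.38 and 7.76 for Mpeg1 and 8.46 and 8.52 for RT1-Db1. Of 14 macrophage and dendritic cell genes 6 were called lower than at 100 mg/kg, and of 8 class II genes 3, beside 36 of 10204 genes.

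Slpi, with 6.20 and 6.07 at 30 mg/kg, against 8.88, 8.92 and 8.37 at 100 mg/kg (limma adjusted p = 0.0081), and the growth factor binding protein Igfbp3, with 6.99 and 6.67, against 9.24, 9.04 and 8.80 (limma adjusted p = 0.0277), also fell relative to 100 mg/kg. So did Gcg, with 3.43 and 3.33 at 30 mg/kg, against 7.29, 7.18 and 7.52 at 100 mg/kg (limma adjusted p = 0.0341), and the endothelial genes Plvap and Kdr, with differences of -2.01 and -1.34 (limma adjusted p = 0.0379 and 0.0377). Gcg in the rats at 200 mg/kg was 7.15 and 6.42, so the treated rats at 30 mg/kg were the lowest of all 10 arrays for it.

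Of the lists, 1 of 16 smooth muscle genes, Lmod1, and 1 of 18 neuron and glia genes, Tubb3, were called higher than at 100 mg/kg, beside 21 of 10204 genes. Among all calls on this side, Nexn, an actin-binding protein of muscle, had 8.61 and 8.43 at 30 mg/kg, against 6.73, 6.87 and 6.89 at 100 mg/kg (limma adjusted p = 0.0081). Pln, the calcium pump regulator phospholamban, had 7.68 and 7.51 at 30 mg/kg, against 5.84, 5.83 and 5.89 at 100 mg/kg (limma adjusted p = 0.0341), and the neuronal tubulin Tubb3 had 6.67 and 6.54, against 5.40, 5.19 and 5.27 (limma adjusted p = 0.0324). The potassium channel Kcnj8 and the muscle glycogen phosphorylase Pygm also rose relative to 100 mg/kg, by 1.39 and 1.31 (both limma adjusted p = 0.0341). The mean level of the 16 smooth muscle genes was 0.74 and 0.43 at 30 mg/kg, against -0.51, -0.53 and -0.54 at 100 mg/kg, and that of 18 neuron and glia genes was 0.56 and 0.39, against -0.40, -0.33 and -0.53. The part of muscle content in these calls was not tested.

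Against 200 mg/kg, 2 of 17694 probe sets were called higher at 30 mg/kg (0.0113%) and 4 lower (0.0226%). These 6 calls became 0 without 30 mg/kg rat 1 or with the rat number as a block, 3 without 100 mg/kg rat 1 or rat 3, 10 and 17 without 200 mg/kg rat 1 and rat 2, 12 without vehicle rat 3 and 228 without vehicle rat 1, so this count was unstable too. Slc25a42, the mitochondrial carrier of coenzyme A, had 6.77 and 6.73 at 30 mg/kg, against 4.22 and 3.90 at 200 mg/kg, and rose by 2.69 relative to the highest dose (SE 0.23, limma adjusted p = 0.0102). Its vehicle rats, with 6.23, 6.58 and 5.89, stood near the 30 mg/kg rats. The tubulin ligase Ttll7 had 5.78 and 5.48 at 30 mg/kg, against 4.31 and 4.18 at 200 mg/kg (limma adjusted p = 0.0392). Reg1a, a regenerating-family lectin of injured gut lining, had 6.35 and 6.36 at 30 mg/kg, against 9.78 and 9.46 at 200 mg/kg, and fell by 3.27 relative to the highest dose (SE 0.35, limma adjusted p = 0.0335). Its level in the vehicle rats was 6.09, 6.26 and 6.52, so the lowest dose and vehicle overlapped.

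Gmds, the first enzyme of GDP-fucose synthesis, had 7.19 and 7.28 at 30 mg/kg, against 9.27 and 8.86 at 200 mg/kg (limma adjusted p = 0.0428). Slamf9 and 1377066_at were the other calls, with 5.36 and 5.15 for Slamf9 and 7.37 and 7.32 for 1377066_at at 200 mg/kg. Both had their lowest measured values of all 10 arrays in the 30 mg/kg rats. Cyp1a1, with the 30 mg/kg values given above, had 9.02, 10.21 and 8.57 at 100 mg/kg and 5.86 and a blank at 200 mg/kg. The difference of 30 minus 100 mg/kg was 0.24 (SE 0.68, limma adjusted p = 0.87) and that of 30 minus 200 mg/kg 3.65 (SE 0.91, limma adjusted p = 0.164), with the blank dropped from the fit.

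**Figure D5:**
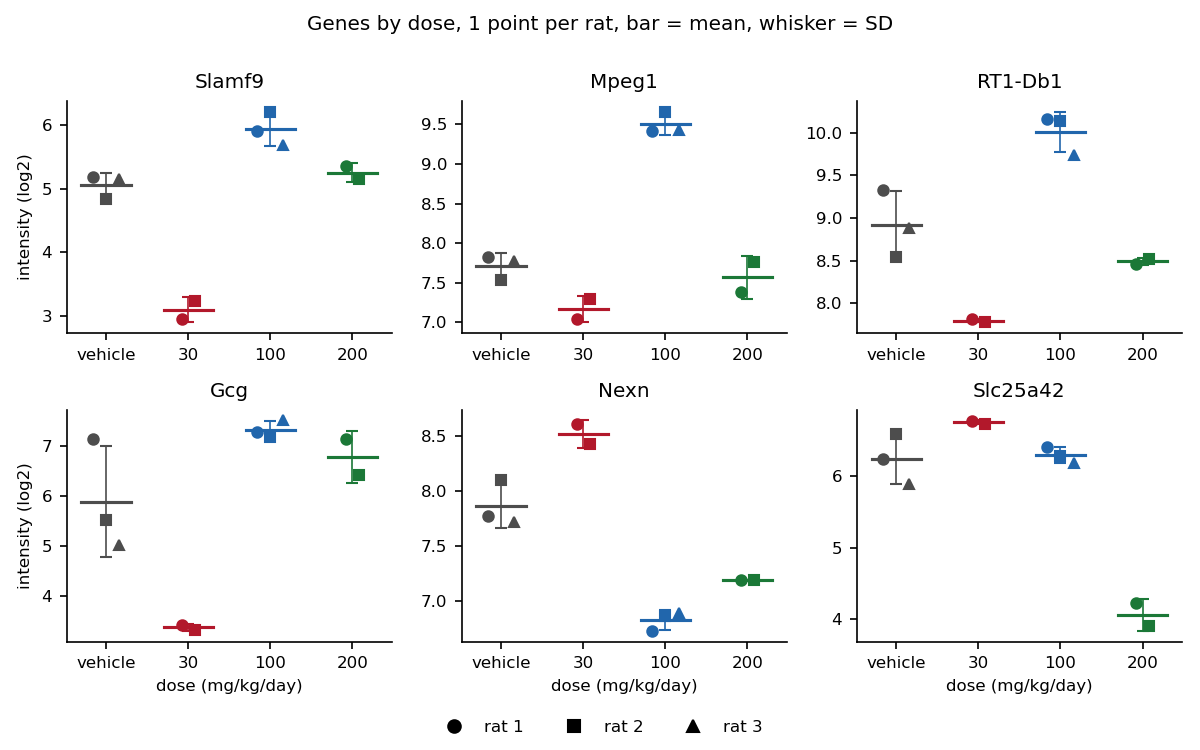
Log2 intensity of 6 genes (y axis, a separate scale in each panel) by dose of A-998679 in mg/kg/day, with vehicle at the left, 1 point per rat, bar at the mean and whisker at the SD. Slamf9 and Gcg are lowest at 30 mg/kg, Mpeg1 and RT1-Db1 are highest at 100 mg/kg, Nexn is highest at 30 mg/kg, and Slc25a42 is low only at 200 mg/kg, at 4.22 and 3.90.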

How the data were processed

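Total RNA of whole jejunum (5 ug per rat, Trizol) was labelled and hybridised to Affymetrix rat arrays, 1 per rat. The authors scaled the scans in Rosetta Resolver (version 7.2) and deposited log10 intensities, which were turned into log2 here. Nothing in the sources used here gives the scaling or the reason for blanks. A second deposited table holds the authors' own fold changes per treated rat and was not used. Arrays have no read depth, and the number of rats limits the precision. Probe sets with a mean over the 10 arrays in the lowest 40% (11823 of 29559) were left out. The fit was limma 3.58.1 in R 4.3.3 (lmFit and eBayes, 1 mean per group over 10 arrays, two-sided), with contrasts of 30 mg/kg minus vehicle, 100 mg/kg and 200 mg/kg, Benjamini-Hochberg adjustment over all probe sets of a contrast and calls at an adjusted p of up to 0.05. Blanks were dropped. GEO's platform annotation names 1 gene for 19952 probe sets, several for 428 and none for 9179, and a gene in a list stands by its brightest probe set. Summaries and plots used Python 3.11.15, pandas 2.3.3 and matplotlib 3.10.9.

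Genes were named by this rule: all genes of the AhR list, every call against vehicle, up to 12 genes per direction by smallest p with a log2 difference of at least 1 and separate groups, up to 6 smaller ones with a mean of at least 8 in both groups, up to 4 per gene list by smallest p, and up to 6 calls per direction against the other doses. The members and lists were chosen with earlier results of these data known. Rat numbers did not pair rats, which were different animals. The fit was tested on simulated data first. Alternatives were other normalizations, floors, an added constant of 16, filters, array weights, robust and trended eBayes, a replicate block, the methods' t-test and leaving out each array.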

Additional observations from a re-analysis of the deposited data

How the results depend on the processing

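Against vehicle, the count of probe sets called higher was 0 in the fit reported and 1 with array weights, and ran from 0 to 1 when 1 array was left out. The count called lower, 2, became 1 when the fit used the 5 arrays alone, 0 with dim values and blanks raised to the 10th or to the 25th percentile, 0 with log2(value + 16), 0 with only probe sets measured on every array, 0 without the filter, 0 with the lowest 60% left out, 0 with trended eBayes and 1 with the rat number as a replicate block, and ran from 0 to 2 when 1 array was left out. The methods' t-test called 0 lower after Benjamini-Hochberg adjustment, and 243 higher and 376 lower at an unadjusted p of up to 0.05. The 99 calls against 100 mg/kg became 13 without the filter, 930 with array weights, 183 with trended eBayes, 18 with the replicate block, 0 by the t-test after adjustment and 4018 before it, and ran from 0 to 1015 when 1 array was left out. The 6 calls against 200 mg/kg became 3 with the floor at the 25th percentile, 2 without the filter, 2 with the lowest 60% left out, 2 with array weights, 0 with the replicate block, 0 by the t-test after adjustment and 1890 before it, and ran from 0 to 228 when 1 array was left out, the highest without vehicle rat 1. The causes were not tested. Deviations of same-numbered rats, on which the replicate block rests, correlated at -0.31 and -0.07 between 30 mg/kg and vehicle, 0.16 and -0.01 between 30 and 100 mg/kg, and 0.24 and 0.24 between 30 and 200 mg/kg.

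Of 3289 alternative values of 139 named genes, 15 in 9 genes of the differences against vehicle changed sign, all in genes that were not called against vehicle. Ptges3 was 0.01 with the replicate block. When 1 array was left out the ranges were Hsp90ab1 -0.47 to 0.15, Ptges3 -0.20 to 0.16, Nqo1 -0.64 to 0.27, Nfe2l2 -0.08 to 0.04, Chrm3 -0.04 to 0.21, Bche -0.28 to 0.21, Lpl -0.10 to 1.70, Plin1 -0.16 to 1.98 and Reg1a -0.03 to 0.18. Ms4a1 was called under the replicate block (-4.19, limma adjusted p = 0.0111), Slc17a1 with array weights (-1.52, limma adjusted p = 0.0467) and Cetn1 without vehicle rat 3 (-2.85, limma adjusted p = 0.0377). Array weights, as given above, put most of the vehicle mean on vehicle rat 2. With 2 rats against 3 and blanks in dim probe sets, a difference that misses the threshold here is not shown to be absent.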
